A study of Mus musculus with 8 samples.

Results

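The activin, inhibin and follistatin genes were followed in the epididymal duct of the E18.5 mouse embryo. The group holds 9 genes of the 46517 in the count table: Inhba, Inhbb, Inha, Fst, Fstl3, Acvr1b, Acvr1c, Acvr2a and Acvr2b. They were chosen by symbol from their known roles and not from their values, though earlier results of these data were known. All 9 were matched by Ensembl identifier. RNA sequencing covered 4 libraries with the label of a Ptk7 conditional knockout (cKO 1, 2, 4 and 5) and 4 controls (1, 3, 4 and 6). Knockout embryos carried a floxed Ptk7 allele over the disrupted Xst87 allele, while controls carried a floxed allele over a wild-type one. Embryos of both groups also carried T-Cre, a transgene that drives Cre recombinase from the brachyury promoter in early mesoderm, and the mT/mG reporter, so the controls had 1 allele open to deletion as well. Ptk7 encodes a transmembrane protein of planar cell polarity and WNT signalling. Nothing in the labels ties a library to an embryo or litter, and p-values therefore reflect the spread among these libraries only, part of which may be technical.

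Activins are dimers of beta subunits, made from Inhba (beta A) and Inhbb (beta B). Inhibins pair a beta subunit with the alpha subunit, Inha, and oppose activin at its receptors. Activin binds a type II receptor (Acvr2a or Acvr2b), which recruits a type I receptor (Acvr1b, or Acvr1c for some ligands) that phosphorylates SMAD2 and SMAD3, and the secreted proteins follistatin (Fst) and follistatin-like 3 (Fstl3) hold the ligand away from its receptors. In the mouse epididymis Inhba is known from the mesenchyme around the Wolffian duct, where it is needed for coiling of the duct epithelium.

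The library labelled Ptk7 cKO 5 stood apart and went against its label: it had 194 CPM of Ptk7 (read counts normalised to library size with TMM factors), against 7.33, 7.59 and 12.5 CPM in the libraries labelled Ptk7 cKO 1, 2 and 4 and 112 to 313 CPM in controls. Knockout below names the 4 libraries of that label, with this one included, and the members' fold changes are also given without it. Control 3 stood apart too: a chi-square test of its counts over genes against each of the other 7 libraries gave 65.4 to 95.5 per degree of freedom, against 15.5 to 37.0 in the 21 pairs without it. Total counts ran from 24807970 to 29590547 per library. Epithelial and mesenchymal markers were both abundant, with Krt18 at 139 RPKM (CPM per kilobase of exon) in knockout and 142 in control, and Dcn at 796 and 765 RPKM, so the samples held duct and surrounding mesenchyme. Markers of gonadal cells, some of which make inhibin, were low beside these. The summed RPKM of 6 Sertoli cell markers was 11.1 to 19.1 in knockout and 9.71 to 13.9 in control. Most of it came from Aard (mean 9.61 over all 8 libraries) and Sox9 (3.14). For 5 fetal Leydig cell markers the sum was 1.10 to 2.13 and 1.99 to 2.67, most of it from Cyp11a1 (1.17) and Star (0.698). For 4 germ cell markers it was 0.123 to 0.431 and 0.0924 to 0.323, with Nanos2 at 0 in all 8 libraries and Ddx4 at 118 counts in all. Without the library labelled Ptk7 cKO 5 the Sertoli sum was 16.1 to 19.1 in knockout, above the control range. The Leydig and germ cell sums still overlapped between the groups. Aard had a log2 fold change of 0.57 over all 8 libraries and 0.74 without that library (edgeR adjusted p = 0.464 and 0.214). Of the 5 tested Sertoli markers 3 lay above 0 and 2 below over all 8 libraries, with Nr5a1 at -0.79 (edgeR adjusted p = 0.409). Amh had 40 counts in all. Inha itself averaged 2.38 RPKM over the 8 libraries, and what gonadal cells add to it was not tested. At an unadjusted edgeR p under 0.05, where 3.50% of all genes were higher and 4.87% lower, 5 of 8 epithelial markers were lower and 0 higher, 4 of 6 smooth muscle markers lower and 1 higher, and 4 of 5 mesothelial markers higher and 0 lower. Without the library labelled Ptk7 cKO 5, where 3.74% of all genes were higher and 5.0% lower, the counts were 5 lower and 0 higher, 5 lower and 1 higher, and 3 higher and 0 lower. Their summed RPKM was 359 to 515 in knockout and 402 to 474 in control for epithelium, 1311 to 1688 and 1699 to 2008 for smooth muscle, and 139 to 178 and 111 to 136 for mesothelium. Most of the epithelial sum came from Krt18 (mean 140 RPKM), Krt8 (131) and Epcam (124.5), which were not among the lower epithelial markers over all 8 libraries. The part of these cell types in any member's value was not tested.

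RefSeq (GRCm38.p6) gave a start site for 8 of the 9 genes. The 250 bases before it are printed for Inhba, for Inhbb, its partner subunit gene, and for Acvr1b. Over all 8 libraries Inhba was the tested member that varied most between libraries of a group, and Acvr1b the one that varied least. The first rank depends on control 3: without it the within-group SD of log2 CPM was 0.28 for Inhba and 0.37 for Fst. Capitals mark matches on either strand to the TATA box letters TATAAA or, for a GC box, the letters GGGCGG.
Inhba, chr13:16011601-16011850, plus strand: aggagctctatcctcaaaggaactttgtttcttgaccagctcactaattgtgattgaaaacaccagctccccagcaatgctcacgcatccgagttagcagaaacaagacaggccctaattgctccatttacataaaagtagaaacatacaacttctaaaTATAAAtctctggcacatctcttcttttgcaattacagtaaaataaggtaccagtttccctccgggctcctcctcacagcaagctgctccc
Inhbb, chr1:119422249-119422498, minus strand: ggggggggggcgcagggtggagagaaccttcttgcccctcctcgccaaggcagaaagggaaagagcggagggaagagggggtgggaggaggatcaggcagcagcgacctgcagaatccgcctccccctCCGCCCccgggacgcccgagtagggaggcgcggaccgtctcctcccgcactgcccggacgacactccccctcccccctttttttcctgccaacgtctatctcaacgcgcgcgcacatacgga
Acvr1b, chr15:101173822-101174071, plus strand: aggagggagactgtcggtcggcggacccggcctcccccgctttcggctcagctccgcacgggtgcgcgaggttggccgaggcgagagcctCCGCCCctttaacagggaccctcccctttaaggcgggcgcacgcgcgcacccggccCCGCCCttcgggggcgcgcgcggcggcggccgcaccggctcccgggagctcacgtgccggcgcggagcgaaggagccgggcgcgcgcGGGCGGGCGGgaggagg
The Inhba window was 43.2% G and C with 3 CpG and held 1 TATA box, starting 91 bases before the start site. The Inhbb window was 68.0% G and C with 21 CpG and 1 GC box, and the Acvr1b window 78.8% with 42 CpG and 4 GC boxes, of which the pair nearest the start site overlap. Over the 32851 RefSeq windows of the same length the median was 52.4% G and C. A TATA box was in 12.4% of those windows and a GC box in 32.7%. The letters TGACGTCA (a CRE), TGACTCA (AP-1) and GTCTAGAC (a SMAD box) were searched as well, on both strands, and were in none of the 3 printed windows (1.55%, 4.46% and 0.167% of all windows). These matches describe letters only. The RefSeq start site was that of the deposited gene model for Inhba and Inhbb and lay within 5 bases of it for Acvr1b.

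Per length, Inhba was the most abundant of the 9 genes in every library. Its mean was 21.2 ± 5.76 RPKM (SD, n = 8), above 80.5% of all tested genes. The genes Acvr1b (5.40 ± 0.365 RPKM) and Acvr2a (5.34 ± 0.584 RPKM), which encode the main type I and a type II activin receptor, came next. These receptors could not be ordered, each being the higher in 4 of 8 libraries. Fstl3 (3.86 ± 0.893 RPKM), Inhbb (3.32 ± 0.834 RPKM), Acvr2b (2.55 ± 0.591 RPKM) and Inha (2.38 ± 0.531 RPKM) followed with ranges that overlap from one to the next. Fst stood below Inha in all 8 libraries at 0.918 ± 0.214 RPKM, and the ranges did not overlap. Fst and Inha rest on few reads, 40 to 77 counts per library for Fst and 63 to 119 for Inha.

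**Figure D1:**
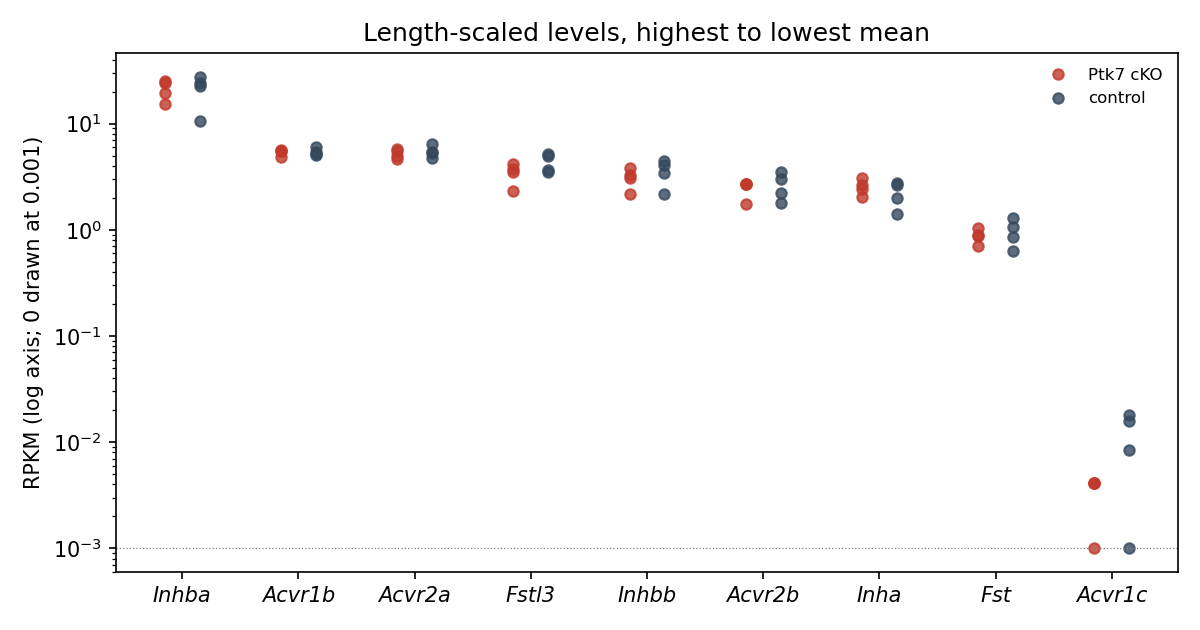
RPKM of the 9 genes in each of the 8 libraries on a log axis, in order of their mean, with the libraries labelled Ptk7 cKO left of control in each pair. Inhba lies above the other genes in every library, at 10.5 to 27.7 RPKM, and Acvr1c lies below 0.02 RPKM, with values of 0 drawn at 0.001.

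The second type I receptor gene, Acvr1c, was near the limit of detection. It had 1, 1, 1 and 0 counts in the libraries labelled Ptk7 cKO 1, 2, 4 and 5, against 2, 5, 0 and 4 counts in controls 1, 3, 4 and 6. A count of 0 allows up to 3 counts, or 0.123 CPM in the library labelled Ptk7 cKO 5 and 0.104 CPM in control 4. With 3 counts in all in knockout and 11 in control, it was left out of the test by the filter on low counts, and no difference was detectable at this depth. The other 8 genes passed the filter.

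No member passed the test between the knockout label and control. In edgeR's quasi-likelihood test 0 of 8 had an adjusted p under 0.05 (adjusted over 16469 genes), against 0.0% of all genes, and 0 of 8 had an unadjusted p under 0.05, against 8.37% of all genes. DESeq2 called 0 of them, against 1.13% of all genes, also with 0 at an unadjusted p under 0.05, against 5.6%, and limma voom called 0, with 1 of 8 (Fstl3, lower) at an unadjusted p under 0.05, against 10.2% of all genes in either direction and 5.91% lower. The ranges of the groups overlapped in 8 of 8 genes, while over all genes 5.76% did not overlap. The log2 fold changes ran from -0.34 to 0.21 with a median of -0.079, 7 below 0 and 1 above. Over all tested genes the median was 0.0055. In bulk tissue, fewer cells of a type and less RNA per cell cannot be told apart.

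**Figure D2:**
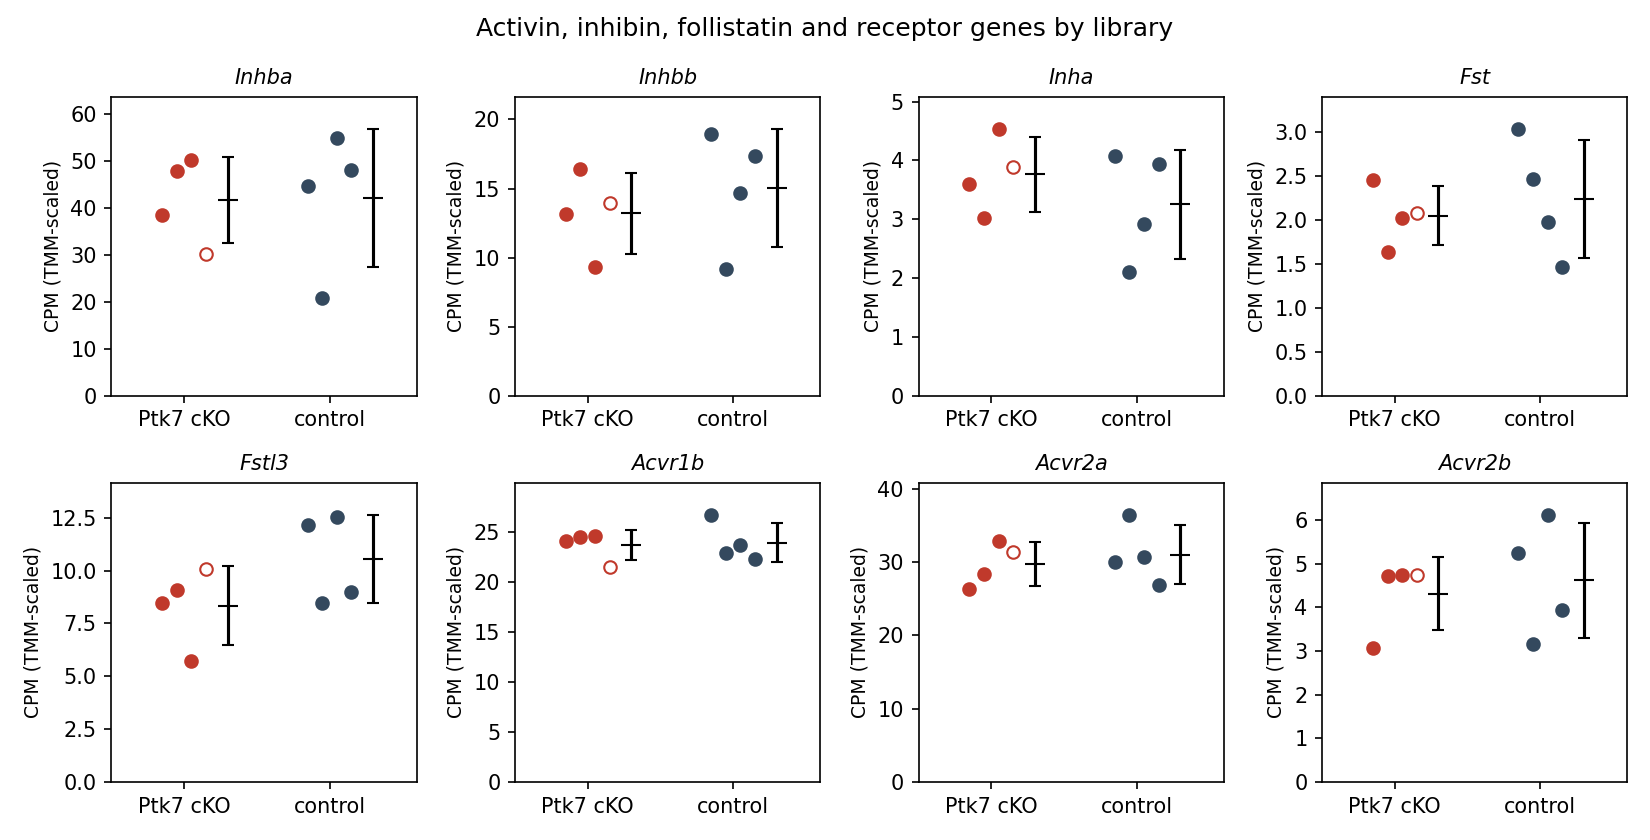
CPM of the 8 tested genes in each library, with the 4 libraries labelled Ptk7 cKO left of the 4 controls, and mean and SD as a bar beside each group; the open circle is the library labelled Ptk7 cKO 5. The groups overlap in every panel, and Inhba is lowest in control 3, at 20.9 CPM, and in the library labelled Ptk7 cKO 5, at 30.1 CPM.

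Among the ligand subunits, Inhba (ENSMUSG00000041324; GRCm38 chromosome 13, 16011851 to 16027211, plus strand) had 38.5, 47.8, 50.2 and 30.1 CPM in the libraries labelled Ptk7 cKO 1, 2, 4 and 5, against 44.6, 20.9, 54.9 and 48.1 CPM in controls 1, 3, 4 and 6. The group means were all but equal, and the spread lay within the groups, with control 3 the lowest of all libraries and the library labelled Ptk7 cKO 5 the next lowest. The means were 41.7 ± 9.19 CPM in knockout and 42.1 ± 14.8 CPM in control (SD, n = 4 each), and the log2 fold change was -0.01 (SE 0.26, edgeR adjusted p = 0.991). The 95% interval ran from 0.666- to 1.47-fold. Without the library labelled Ptk7 cKO 5 the log2 fold change was 0.11 (SE 0.27, edgeR adjusted p = 0.914), and without control 3 it was -0.24 (SE 0.16, edgeR adjusted p = 0.881).

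The beta B subunit gene Inhbb (ENSMUSG00000037035; chromosome 1, 119415465 to 119422248, minus strand) had 13.2, 16.4, 9.31 and 13.99 CPM in the libraries labelled Ptk7 cKO 1, 2, 4 and 5, against 19.0, 9.16, 14.7 and 17.4 CPM in controls 1, 3, 4 and 6. Its lowest libraries were control 3, as for Inhba, and the library labelled Ptk7 cKO 4, which had the highest Inhba of its group. The log2 fold change was -0.18 (SE 0.22, edgeR adjusted p = 0.835). It was -0.21 without the library labelled Ptk7 cKO 5 and -0.36 without control 3 (edgeR adjusted p = 0.824 and 0.738). The alpha subunit gene Inha (ENSMUSG00000032968; chromosome 1, 75507077 to 75510366, plus strand) had 3.61, 3.01, 4.54 and 3.89 CPM in the libraries labelled Ptk7 cKO 1, 2, 4 and 5, against 4.07, 2.10, 2.92 and 3.93 CPM in controls 1, 3, 4 and 6. It was the 1 member with a fold change above 0 (log2 0.21, SE 0.23, edgeR adjusted p = 0.818), and here too control 3 was the lowest library. Without the library labelled Ptk7 cKO 5 the fold change of Inha was 0.20 on the log2 scale (edgeR adjusted p = 0.841).

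Of the ligand-binding proteins, Fstl3 (ENSMUSG00000020325; chromosome 10, 79777272 to 79782630, plus strand) had the smallest p of the members. It stood at 8.48, 9.08, 5.73 and 10.1 CPM in the libraries labelled Ptk7 cKO 1, 2, 4 and 5, against 12.2, 8.49, 12.5 and 9.01 CPM in controls 1, 3, 4 and 6. The knockout mean was 8.35 ± 1.87 CPM and the control mean 10.5 ± 2.09 CPM (SD, n = 4 each), but the libraries labelled Ptk7 cKO 2 and 5 lay within the control range. Of the 3 libraries with low Ptk7, 1 lay in that range, and the library labelled Ptk7 cKO 1 was all but level with its lower end (8.48 against 8.49 CPM). The log2 fold change was -0.34 (SE 0.19, edgeR adjusted p = 0.684). With the library labelled Ptk7 cKO 5 left out it was -0.44 (SE 0.20, edgeR adjusted p = 0.578), and with control 3 left out -0.43 (SE 0.19, edgeR adjusted p = 0.705). Fst (ENSMUSG00000021765; chromosome 13, 114452262 to 114458730, minus strand) had 2.46, 1.64, 2.02 and 2.09 CPM in the libraries labelled Ptk7 cKO 1, 2, 4 and 5, against 3.04, 2.46, 1.98 and 1.47 CPM in controls 1, 3, 4 and 6. The knockout libraries all lay inside the control range, and the log2 fold change was -0.13 with and without the library labelled Ptk7 cKO 5 (SE 0.25 and 0.28, edgeR adjusted p = 0.904 for both). Exons of Fstl3 share 1157 bases with Prss57 on the opposite strand, which averaged 0.0571 CPM.

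The receptor genes Acvr1b and Acvr2a were the steadiest members. Acvr1b (ENSMUSG00000000532; chromosome 15, 101174067 to 101213679, plus strand) had 24.2, 24.6, 24.7 and 21.5 CPM in the libraries labelled Ptk7 cKO 1, 2, 4 and 5, against 26.8, 23.0, 23.7 and 22.4 CPM in controls 1, 3, 4 and 6. Its log2 fold change was -0.01 (SE 0.09, edgeR adjusted p = 0.978), with an interval of 0.867- to 1.13-fold, the narrowest of the members. Leaving out the library labelled Ptk7 cKO 5 gave 0.032 (SE 0.09, edgeR adjusted p = 0.930). Acvr2a (ENSMUSG00000052155; chromosome 2, 48814109 to 48903269, plus strand) had 26.3, 28.3, 32.9 and 31.4 CPM in the libraries labelled Ptk7 cKO 1, 2, 4 and 5, against 30.0, 36.5, 30.8 and 26.9 CPM in controls 1, 3, 4 and 6. Control 3, the lowest library for the 3 subunit genes, was the highest for this receptor. The log2 fold change was -0.06 (SE 0.11, edgeR adjusted p = 0.889). Leaving out the library labelled Ptk7 cKO 5 gave -0.09 (edgeR adjusted p = 0.847). Exons of Acvr2a share 446 bases with Orc4 on the opposite strand, which averaged 30.7 CPM, and the strand setting of the counting is not given, so reads there cannot be told apart. Acvr2b (ENSMUSG00000061393; chromosome 9, 119402444 to 119433501, plus strand) had 3.07, 4.73, 4.73 and 4.74 CPM in the libraries labelled Ptk7 cKO 1, 2, 4 and 5, against 5.26, 3.16, 6.12 and 3.93 CPM in controls 1, 3, 4 and 6. The libraries labelled Ptk7 cKO 2, 4 and 5 were nearly equal while the controls spread, and the log2 fold change was -0.10 (SE 0.23, edgeR adjusted p = 0.924). It was -0.14 without the library labelled Ptk7 cKO 5 and -0.24 without control 3 (edgeR adjusted p = 0.889 and 0.924).

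**Figure D3:**
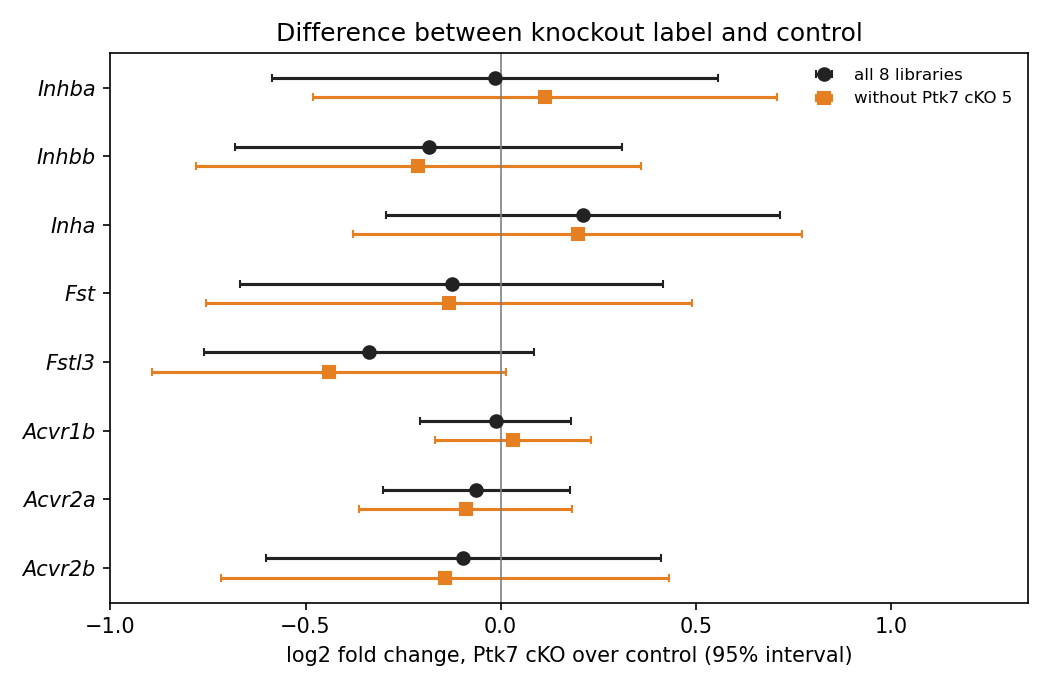
Log2 fold change of knockout label over control with its 95% interval for the 8 tested genes, over all 8 libraries (circles) and without the library labelled Ptk7 cKO 5 (squares). Every interval includes 0; Fstl3 lies farthest from 0, at -0.34 and -0.44, and Acvr1b has the narrowest interval.

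The spread between libraries of the same group differed from member to member. The within-group SD of log2 CPM was 0.50 for Inhba, where the median of the 3410 genes within 1.5-fold of its level was 0.13, and 0.41 for Inhbb, against 0.17 for 2513 genes. Much of this came with control 3: without it the SD was 0.28 for Inhba, against a median of 0.10 for 3434 genes of like level, and 0.29 for Inhbb, against 0.14 for 2587 genes. Both subunit genes thus lay above the median of their level with and without that library, and counting alone gives a CV of 2.99% for Inhba and 5.16% for Inhbb. For Acvr1b it was 0.10, below the median of 0.15 for 3026 genes of like level, and for Acvr2a 0.16 against 0.14. Fstl3 (0.32 against 0.19) and Acvr2b (0.37 against 0.25) lay above their medians. For Inha (0.35 against 0.28) and Fst (0.35 against 0.32) the gap was smaller, with Inha at 0.25 against 0.25 without control 3, and counting gives a CV of 10.4% and 13.2%. The lowest Inhba libraries, control 3 and the library labelled Ptk7 cKO 5, had the highest and the lowest mitochondrial share of counts, 3.47% and 1.82%, with 2.37% to 2.64% in the others.

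Ratios of length-scaled levels within a library describe the balance of the system and were not tested. Inhba exceeded Inhbb in every library, 6.29, 6.26, 11.6 and 4.63 times in the libraries labelled Ptk7 cKO 1, 2, 4 and 5, against 5.05, 4.90, 8.04 and 5.96 times in controls 1, 3, 4 and 6. The library labelled Ptk7 cKO 4 had the highest ratio, from a low Inhbb beside a high Inhba. The summed beta subunits exceeded the summed Fst and Fstl3 in every library, 4.99, 6.34, 8.59 and 3.68 times in the libraries labelled Ptk7 cKO 1, 2, 4 and 5, against 4.29, 2.80, 5.22 and 6.58 times in controls 1, 3, 4 and 6. Transcript ratios of this kind do not give protein ratios. Inha stood at 0.0730 to 0.142 of the summed beta subunits in knockout libraries and 0.0635 to 0.112 in controls. Acvr2a exceeded Acvr2b 1.84 to 2.64 times in knockout libraries and 1.55 to 3.55 times in controls, and Fstl3 exceeded Fst 2.71 to 5.29 and 3.29 to 6.04 times. All of these ranges overlapped between the groups, also without the library labelled Ptk7 cKO 5, which held the lowest ratio of Inhba to Inhbb, the lowest of beta subunits to follistatins and the highest of Inha to beta subunits in its group.

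**Figure D4:**
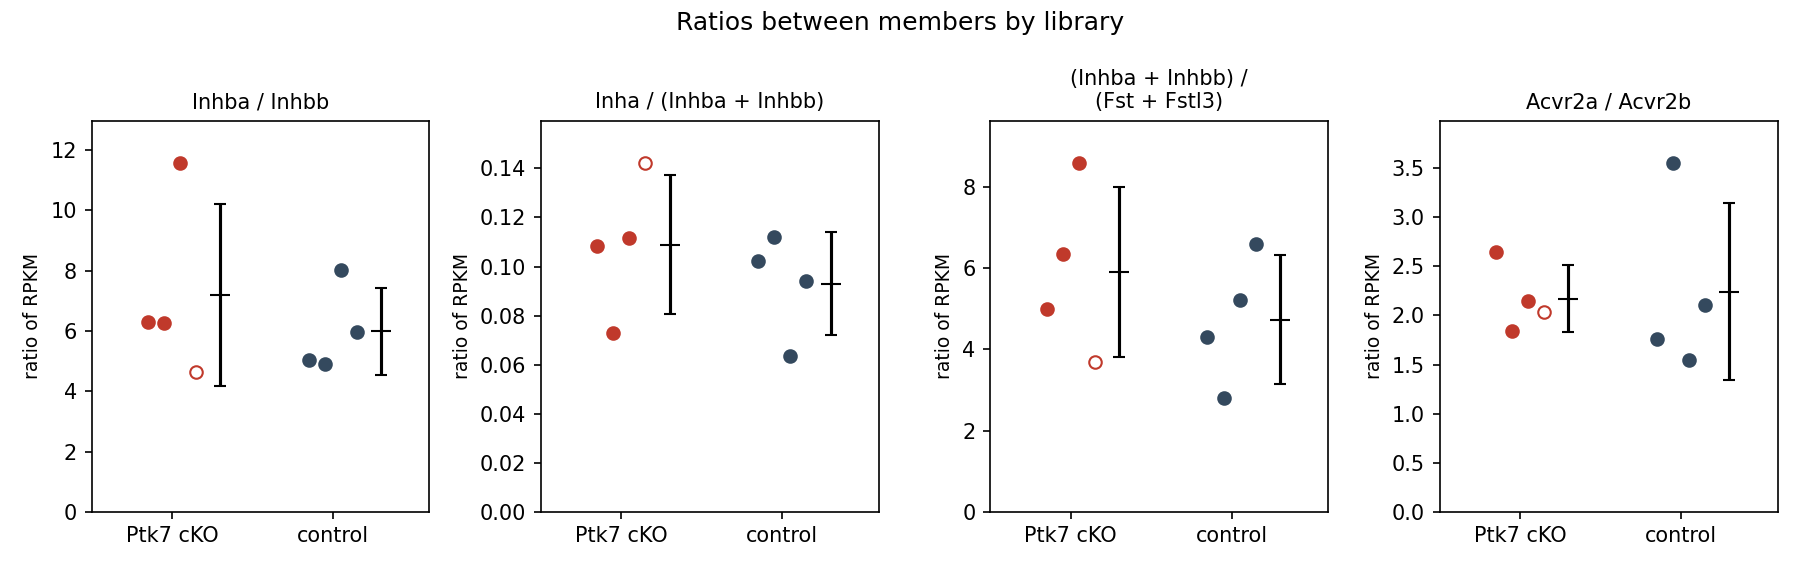
Ratios of RPKM within each library, with the 4 libraries labelled Ptk7 cKO left of the 4 controls, mean and SD beside each group, and the library labelled Ptk7 cKO 5 as an open circle. The groups overlap in each ratio; beta A exceeds beta B by 4.63 to 11.6 times, and the beta subunits exceed the follistatins by 2.80 to 8.59 times.

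No relation between members across the 8 libraries passed its test. Of the 28 pairs of members, 1 had an exact permutation p under 0.05 for Pearson's r and another 1 for Spearman's rho. The first was Inhbb with Fstl3 (Pearson r = 0.70, two-sided exact permutation p = 0.0473; Spearman rho = 0.64, exact permutation p = 0.0962). It did not hold when adjusted over the 28 pairs (adjusted p = 0.761 for r and 0.898 for rho). Without the 2 libraries farthest from the median of Inhbb, control 3 and the library labelled Ptk7 cKO 4, r was 0.31. Leaving them out also narrows the range of Inhbb, so the lower r does not settle what the relation rests on. The other was Fstl3 with Acvr2b (Spearman rho = 0.76, exact permutation p = 0.0368; Pearson r = 0.44, exact permutation p = 0.277), with adjusted p = 0.898 for rho and 0.778 for r, and r was 0.82 without control 4 and the library labelled Ptk7 cKO 4. The genes whose log2 CPM was most like that of a member, picked from 13281 as the highest r and so given as a description, were Chtf18, Tgif2-ps2 and Dbp for Inhba (r = 0.96 each, rho 1.0, 0.83 and 0.76). Tgif2-ps2 is a pseudogene whose reads may come from its parent gene. For Inhbb they were Htatip2, Hoxb4 and Fam89a (r = 0.95 each), for Inha Dll4, Gnb5 and Abcg3 (0.99, 0.97 and 0.97), and for Fst Pcdhb18, Fcho2 and Rfxank (0.95, 0.94 and 0.92). Of the 13281 genes, 49 had an r above 0.9 with Inhba, 20 with Inhbb, 112 with Inha and 4 with Fst. Without control 3 and the library labelled Ptk7 cKO 5, r with Inhba was 0.87 for Chtf18, 0.85 for Tgif2-ps2 and 0.63 for Dbp.

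Other genes of the pathway were read from 4 lists, and no gene in them passed an adjusted edgeR p of 0.05. Of 9 related ligands 2 were tested, Gdf11, a ligand of the same receptors, at 5.13 RPKM in knockout and 4.26 in control (log2 fold change 0.27, edgeR adjusted p = 0.735), and Lefty1, an inhibitor of nodal signalling, at 1.09 and 0.679 RPKM (0.69, adjusted p = 0.733). Over all 8 libraries 0 of the 2 had an unadjusted edgeR p under 0.05, against 8.37% of all genes. Without the library labelled Ptk7 cKO 5 the log2 fold change of Lefty1 was 0.99 (edgeR adjusted p = 0.517). In that fit 1 of the 2, Lefty1, was higher at an unadjusted p under 0.05, where 3.74% of all genes were higher. Mstn, the myostatin gene, had 0 counts in all 8 libraries, Lefty2 stood at 0.0745 RPKM in knockout and 0.151 in control, and Gdf1 was not matched.

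Among 13 co-receptors and extracellular modulators, 9 were tested, with 1 higher and 0 lower at an unadjusted p under 0.05, where 3.50% of all genes were higher and 4.87% lower. The higher gene was Bambi, a decoy receptor that lacks a kinase domain, with 51.0 ± 0.394 CPM in knockout and 44.6 ± 3.97 CPM in control (SD, n = 4 each; edgeR adjusted p = 0.512 for a log2 fold change of 0.19, SE 0.08). The most abundant members were Fstl1, a secreted relative of follistatin, at 299 and 287 RPKM, Wfikkn2, a binder of myostatin and Gdf11, at 33.5 and 30.7 RPKM, and Furin, a protease that cleaves the precursors of this ligand family, at 12.6 and 11.9 RPKM in knockout and control. Their edgeR adjusted p-values were 0.835, 0.804 and 0.867.

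Of 17 intracellular transducers and regulators 16 were tested, with 0 higher and 1 lower at an unadjusted edgeR p under 0.05, where 4.87% of all genes were lower. Skil, a co-repressor that is itself a SMAD2/3 target, had 67.4 ± 2.77 CPM in knockout and 76.7 ± 7.25 CPM in control (SD, n = 4 each; edgeR adjusted p = 0.531 for a log2 fold change of -0.19, SE 0.08). The most abundant were Fkbp1a, a binder of type I receptors, at 105 and 114 RPKM, Ski, a co-repressor of SMADs, at 73.7 and 69.6 RPKM, and Ppm1a, a phosphatase of SMADs, at 38.6 and 36.2 RPKM in knockout and control.

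Of 10 SMAD2/3 response genes 8 were tested, with 1 higher and 2 lower at an unadjusted edgeR p under 0.05. Over all genes 3.50% were higher and 4.87% lower. Tgfbi, a secreted matrix protein, had 223 ± 15.7 CPM in knockout and 163 ± 26.2 CPM in control (SD, n = 4 each; log2 fold change 0.45, SE 0.11, edgeR adjusted p = 0.238). DESeq2 called it (adjusted p = 0.0220), the 1 gene of these 4 lists that it called. Bhlhe40, a transcription factor, had 36.0 ± 4.74 CPM in knockout and 42.6 ± 3.02 CPM in control (SD, n = 4 each; edgeR adjusted p = 0.556 for a log2 fold change of -0.24, SE 0.10). The most abundant of the rest were Fn1 (fibronectin) at 40.9 and 39.3 RPKM and Pmepa1, a feedback inhibitor of SMAD signalling, at 27.7 and 28.0 RPKM in knockout and control. The median log2 fold change was 0.48 for the 2 related ligands, 0.084 for the modulators, -0.045 for the transducers and -0.073 for the response genes, beside 0.0055 over all genes. Without the library labelled Ptk7 cKO 5 these medians were 0.68, 0.085, -0.028 and -0.22, the last over 9 tested genes, beside 0.0073 over all genes, and the log2 fold changes were 0.19 for Bambi, -0.21 for Skil, 0.48 for Tgfbi and -0.30 for Bhlhe40 (edgeR adjusted p = 0.569, 0.553, 0.277 and 0.462).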

How the data were processed

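Total RNA of E18.5 epididymal ducts was sequenced in 8 libraries. Per the labels' protocols, libraries were made with a TruSeq kit and sequenced on an Illumina HiSeq instrument, and the submitters' processing notes name STAR, featureCounts and GRCm38. Versions, strand setting and annotation release were not given in the sources used here. Raw, unnormalized counts were deposited by the authors, 1 column a library, beside each gene's summed exon length.

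From these counts, edgeR 4.0.16 (R 4.3.3) with TMM factors, filterByExpr (16469 genes kept) and the quasi-likelihood test of group (8 libraries) gave p-values adjusted by Benjamini-Hochberg over all tested genes. CPM and RPKM use TMM-scaled library sizes. The log2 CPM has a prior count of 2. The SE is the size of the log2 fold change divided by the square root of F, and is approximate. The 95% intervals of fold changes were built from this approximate SE. Floors of 3 counts cover counting error only. Libraries were checked for duplicates: chi-square per degree of freedom was 15.5 to 95.5 over 28 pairs. The biological coefficient of variation was 15.2%. Code was tested on simulated counts.

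The members, 4 pathway lists and 11 marker lists were chosen with earlier results of these data known. Named genes were the 9 members, Ptk7, the 3 most abundant genes of each pathway list, those with an unadjusted p under 0.05, and the 3 genes most like Inhba, Inhbb, Inha and Fst (mean CPM of at least 1). One gene that this rule names is not reported here. Mstn and the gonadal markers printed were added after their values were seen. Marker lists had 0 genes called by edgeR (0.0% of all genes). DESeq2, which called 1.13% of all genes, called 3 of 5 tested for mesothelium, 2 of 8 for duct epithelium, 1 of 5 for red cells and 0 of the others. At an unadjusted edgeR p under 0.05, 3.50% of all genes were higher and 4.87% lower. There mesenchyme had 0 higher and 1 lower of 6 tested, Sertoli cells 2 and 1 of 5, and Leydig cells 0 and 1 of 2. Neurons with Schwann cells had 2 and 0 of 4, and red cells 2 and 0 of 5. Germ cells (1 tested), endothelium (5) and macrophages (5) had 0 and 0 each. Alternatives were DESeq2 size factors, no filter, DESeq2 1.42.0, limma 3.58.1 voom with quality weights, a replicate block and leaving out each library. DESeq2 without the library labelled Ptk7 cKO 5, and spread, ratios and list counts without that library or control 3, were added after seeing the data.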

Additional observations from a re-analysis of the deposited data

Results flagged for a closer look

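In 32 groups of 4 libraries examined for a library far from the rest of its group, 4 values were marked, where chance gives about 1 in 20. The library labelled Ptk7 cKO 5 had 194 CPM of Ptk7, against 7.33 to 12.5 CPM in the others of its label. The same library had 21.5 CPM of Acvr1b, below the 24.2 to 24.7 CPM of the others, and 0 CPM of Acvr1c, where the others had 1 count each. With counts of 1 and 0 the chance rate above does not apply to the Acvr1c value. The library labelled Ptk7 cKO 1 had 3.07 CPM of Acvr2b, below the 4.73 to 4.74 CPM of the others.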

How the results depend on the processing

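No member was called under any alternative: 0 of those tested passed with each tool, scaling, filter and left-out library, and the lowest adjusted p was 0.233. Of 112 member values under alternatives, 13 changed sign. At an unadjusted p under 0.05, Fstl3 was lower without control 3 (3.92% of all genes were lower) and in DESeq2 without the library labelled Ptk7 cKO 5 (3.19%), as in limma voom. The count of all genes called was 0, and moved to 1 with no filter on low counts, 184 with DESeq2 and 177 with DESeq2 without the library labelled Ptk7 cKO 5, and was 0 to 2 with 1 library left out. With 1 library left out the log2 fold change ran from -0.24 to 0.14 for Inhba, -0.36 to -0.048 for Inhbb, 0.048 to 0.34 for Inha, -0.28 to 0.054 for Fst, -0.44 to -0.19 for Fstl3, -0.044 to 0.045 for Acvr1b, -0.12 to 0.025 for Acvr2a and -0.24 to 0.070 for Acvr2b. DESeq2 without the library labelled Ptk7 cKO 5 gave 0.11 for Inhba and 0.034 for Acvr1b.

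The groups share the numbers 1 and 4, and deviations of same-numbered libraries correlated at -0.09 and 0.02. With 2 shared numbers this cannot tell whether same-numbered libraries also share a litter or a batch. The replicate block over those 4 libraries called 7 genes and 0 members, with 3 members lower at an unadjusted p under 0.05 (5.52% of all genes were lower): Inhbb (-0.59), Fstl3 (-0.82) and Acvr2b (-0.56). The cause was not tested. Depth limits Acvr1c, Fst and Inha most.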
